A study of Homo sapiens with 30 samples.

Results

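Peaks of TET1 and CTCF from chromatin immunoprecipitation with sequencing (ChIP-seq) were compared in cells that had not been depleted of CTCF. The cells were HEK293T, a widely used human line derived from embryonic kidney. The comparison uses 6 of the 30 samples of the study, 3 precipitated with an antibody against TET1 and 3 with an antibody against CTCF, and 2 of its 8 peak lists. All of these cells had been edited at CTCF for auxin-inducible degradation. They also carried the transfected plasmids pcDNA3.1-ScFv-miniIAA7-mEGFP and pcDNA3.1-AtAFB2-mCherry. They were kept for 72 h without the auxin indole-3-acetic acid (IAA), and 1 label names this condition DMSO. Transfected cells are a mixture of cells that took up more or less of each plasmid, and the labels do not say whether the edited line is 1 clone. The lists for MBD3 and TET2 from the same cells were used only as further readouts at the TET1 regions.

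TET1 is a dioxygenase that oxidises 5-methylcytosine to 5-hydroxymethylcytosine and further products, a step towards the removal of DNA methylation, and its CXXC domain binds CpG-rich DNA. CTCF is a zinc-finger protein that binds a long, directional motif and, with cohesin, anchors chromatin loops and the borders of topological domains. Methylation of CpGs within the motif weakens CTCF binding at many sites. MBD3 belongs to the NuRD complex, which remodels nucleosomes and removes acetyl groups from histones, and TET2 is a relative of TET1 that lacks a CXXC domain of its own.

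The TET1 list held 16246 regions and the CTCF list 42925, once overlapping rows within a list had been merged at a minimum overlap of 1 bp. All joined rows had the same start and end and differed in their summit, so that 190 TET1 regions and 900 CTCF regions had several summits. Fold enrichment was the authors' value per peak, and it was used to rank regions within 1 list and never to say that 1 protein was more enriched than the other. Its median was 7.32 in the TET1 list (quartiles 5.44 and 9.68, highest 40.8) and 13.6 in the CTCF list (quartiles 7.43 and 24.2, highest 125.9). Each list pools 3 samples, so no value below has a replicate error and no difference was tested across cultures. Wilson 95% intervals of shares and order-statistic 95% intervals of medians cover counting error over regions only. An overlap of pooled lists places the signals of both antibodies at 1 position in the population of cells. Whether both proteins were on the same DNA molecule was not tested, nor was the specificity of the antibodies. Sequencing depth is unknown here and sets how weak a region could be and still be called.

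Most TET1 regions lay at CTCF sites, while most CTCF regions had no TET1 region called on them. A TET1 region is called "at CTCF" here where it shared at least 1 bp with a CTCF region and "away from CTCF" otherwise. The overlap was met by 14798 TET1 regions, or 91.1% of the list, and left 1448 away from CTCF. From the other side, 14746 CTCF regions carried TET1, or 34.4%, and 28179 did not. The relation was close to 1 to 1. No TET1 region touched more than 1 CTCF region, and 0 of 14798 allows a share of up to 0.0203%. Of the CTCF regions with TET1, 52 were touched by 2 TET1 regions. Few regions lay near the limit of the 1 bp rule. The smallest overlaps were 4, 9 and 16 bp and the smallest gaps 6, 11 and 18 bp, with TET1 folds of 3.93, 3.33 and 3.67 inside and 3.92, 4.34 and 3.27 outside. An overlap under 50 bp occurred in 16 of the 14798 regions, and 47 of the 1448 regions away from CTCF lay within 200 bp of the edge of a CTCF region.

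The stronger a TET1 region was, the more often it lay at CTCF. Over 10 equal bins of TET1 fold, the share at CTCF was 56.7% (54.3% to 59.1%) in the weakest bin, with folds up to 4.19, and 88.6% (87.0% to 90.1%) in bin 3. From bin 5 upwards, at folds of 6.61 or more, it was at least 98.4%. Above a fold of 12.4, all 1625 regions were at CTCF. Regions at CTCF had a median TET1 fold of 7.61 (95% interval 7.58 to 7.68, n = 14798), against 4.22 (4.15 to 4.27, n = 1448) away from CTCF. Only 13 of the 1448 regions away from CTCF exceeded the median of those at CTCF. Median −log10 q of the TET1 regions was 15.4 at CTCF and 3.31 away.

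CTCF fold set apart the CTCF regions that carried TET1 from those that did not, with a steep change between folds of 15 and 30. TET1 was called at 4.74% (4.37% to 5.14%) of the 11798 CTCF regions with a fold from 5 to 10 and at 10.9% (10.2% to 11.7%) of those from 10 to 15. The share was 31.1% (29.9% to 32.4%) from 15 to 20, 56.4% (54.9% to 57.8%) from 20 to 25 and 77.7% (76.3% to 79.1%) from 25 to 30. From 30 to 40 it was 90.8%, from 40 to 50 it was 98.1%, and at 50 or more it was 99.6% (98.9% to 99.8%, n = 947). At the weak end the order turned. CTCF regions with a fold under 3 carried TET1 in 40 of 278 cases, or 14.4% (10.7% to 19.0%), and those from 3 to 5 in 7.44%. Of these 40 regions, 19 were called with all 4 antibodies. Taking the 278 together, with or without TET1, 6.83% had all 4, while the share in the whole CTCF list was 0.315%. The median CTCF fold was 28.0 with TET1 (27.7 to 28.2) and 9.35 without TET1 (9.21 to 9.49).

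**Figure D1:**
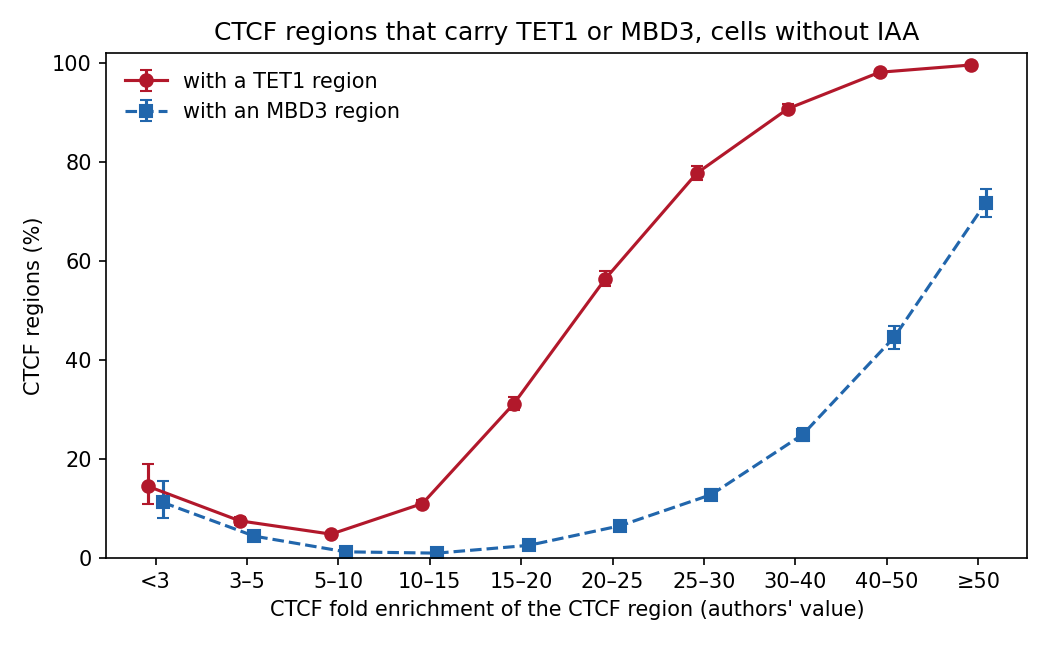
Share of CTCF regions that carry a TET1 region (circles) or an MBD3 region (squares), in percent, by range of CTCF fold enrichment; bars are Wilson 95% intervals. The TET1 share is lowest at 4.74% for folds from 5 to 10 and reaches 99.6% at folds of 50 or more, while MBD3 reaches 71.7% there, against 8.67% of all CTCF regions.

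CTCF regions of high fold without TET1 were few. At a fold of 40 or more, 2652 of 2689 CTCF regions carried TET1, or 98.6% (98.1% to 99.0%), and 37 did not. The 2652 with TET1 had a median CTCF fold of 46.9 and a median −log10 q of 195.4, against 41.7 and 130.8 for the 37 without TET1. MBD3 was called at 1444 of the 2652 regions with TET1, or 54.4% (52.5% to 56.3%), and at 11 of the 37 without it, or 29.7% (17.5% to 45.8%). The highest CTCF region without TET1 lay at chr4:77100975-77101392 (build hg19, as all positions here), at 55.5-fold, and MBD3 was called there. Its rank in the CTCF list was 526, and the nearest TET1 summit lay 31482 bp away. Next came chr3:195586158-195586589 at 53.5-fold, where the nearest TET1 summit was 3771 bp away. The others were chr5:98368105-98368509 and chr5:40904607-40905214 at 53.2- and 50.4-fold, and chr15:37175872-37176239 at 48.4-fold. The region on chromosome 15 also carried MBD3, and the other 3 carried neither MBD3 nor TET2. Genes at these positions are not named, since no annotation of this build was used here.

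Among CTCF regions of like fold, the wider ones carried TET1 more often. In each of 10 equal bins of CTCF fold, regions wider than the median of the bin had TET1 more often than the narrower ones. The difference ran between 3.09 and 26.6 percentage points. It was largest in bin 7, with folds from 17.2 to 21.7, where TET1 was called at 55.3% of the 2127 wider regions and 28.7% of the 2165 narrower ones. Wider regions in that bin also had the higher median −log10 q, at 67.8 against 48.8 for the narrower ones, and the part of this in the difference was not tested. CTCF regions with several summits carried TET1 in 522 of 900 cases, or 58.0% (54.7% to 61.2%). Those with 1 summit did so in 33.8% (33.4% to 34.3%), and the order was the same in all 10 bins of fold. Over all CTCF regions the median width was 352 bp with TET1 and 235 bp without TET1.

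**Figure D2:**
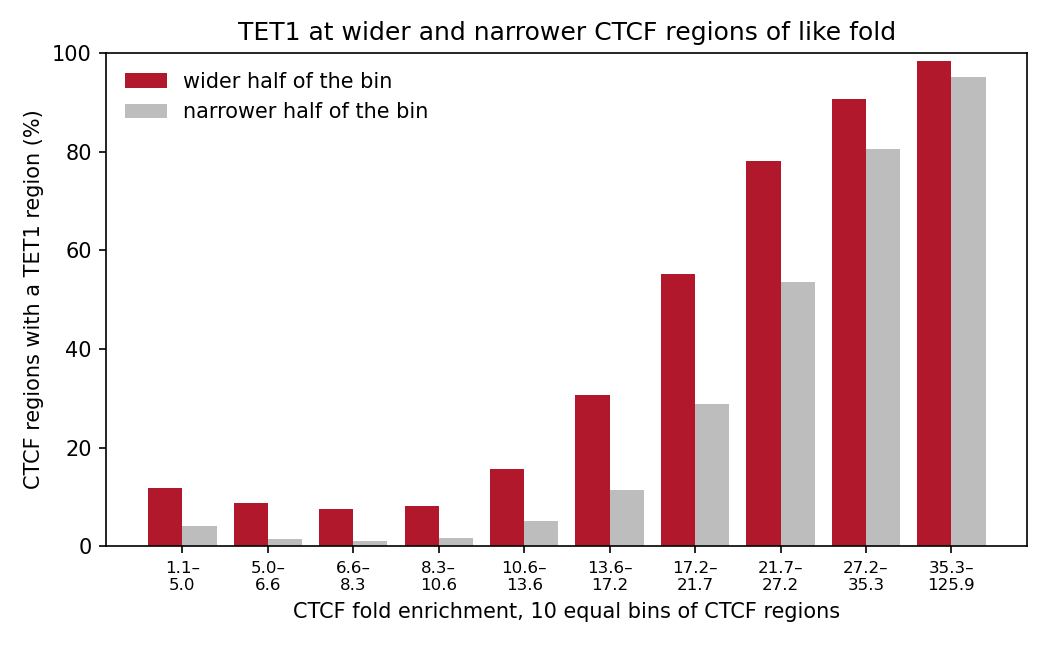
Share of CTCF regions with a TET1 region, in percent, for the wider and the narrower regions in each of 10 equal bins of CTCF fold enrichment. The wider regions stand higher in all 10 bins, most in the bin from 17.2 to 21.7, with 55.3% against 28.7%.

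Isolated CTCF regions carried TET1 less often than those with a CTCF neighbour. With the nearest other CTCF summit within 1 kb, 35.7% (33.6% to 37.9%, n = 1919) had TET1. The share was 39.4% (38.6% to 40.2%) at 1 to 10 kb, 32.8% (32.2% to 33.4%) at 10 to 100 kb and 19.0% (17.5% to 20.5%, n = 2624) beyond 100 kb. Median CTCF fold also differed between these classes, at 9.62, 14.8, 13.5 and 11.6 in the same order. Among CTCF regions with a fold of 20 or more, TET1 was called at 85.2% (81.8% to 88.0%, n = 500) within 1 kb. It was called at 82.9% of such regions at 1 to 10 kb, 77.3% at 10 to 100 kb and 61.7% (57.8% to 65.3%, n = 639) beyond 100 kb. Their median CTCF fold was 28.7, 29.4, 29.4 and 27.2 in the same order, so the isolated class was also the lowest in fold. The part of fold in the difference was not tested.

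Where both proteins were called, TET1 fold followed CTCF fold. Each of the 14798 TET1 regions at CTCF was paired with the CTCF region it overlapped. Spearman's rho between TET1 and CTCF fold was 0.778 over these sites. It describes sites that share both libraries and describes none where TET1 fell below the calling threshold. Both folds are relative to a background, and the control behind them is not given in the sources used. The part of a background common to both lists in rho was not tested. Over 10 equal bins of CTCF fold, the median TET1 fold was 4.55 (quartiles 3.68 and 5.65) in the weakest bin, 7.24 (6.22 and 8.53) in bin 5 and 13.7 (11.6 and 16.2) in the strongest. Within single bins rho was between 0.0743 and 0.193 in bins 2 to 9 and 0.210 in bin 1. It was 0.521 in bin 10, which spans CTCF folds of 45.9 to 125.9. The bins were cut on CTCF fold and so limit its range, to between 25.2 and 28.0 in bin 5. A narrow range lowers rho by itself, so these values do not measure the relation over all sites. By chromosome, over chromosomes 1 to 22 and X, rho lay between 0.714 on chromosome 22 and 0.820 on chromosome 17. It was 0.814 at the 3369 sites with MBD3 and 0.724 at the 11429 sites without it, and MBD3 was called at 23.2% of all TET1 regions. The range of fold also differed there, with TET1 quartiles of 7.63 and 13.1 with MBD3 and 5.63 and 9.06 without. These 2 values of rho were not compared at like range.

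**Figure D3:**
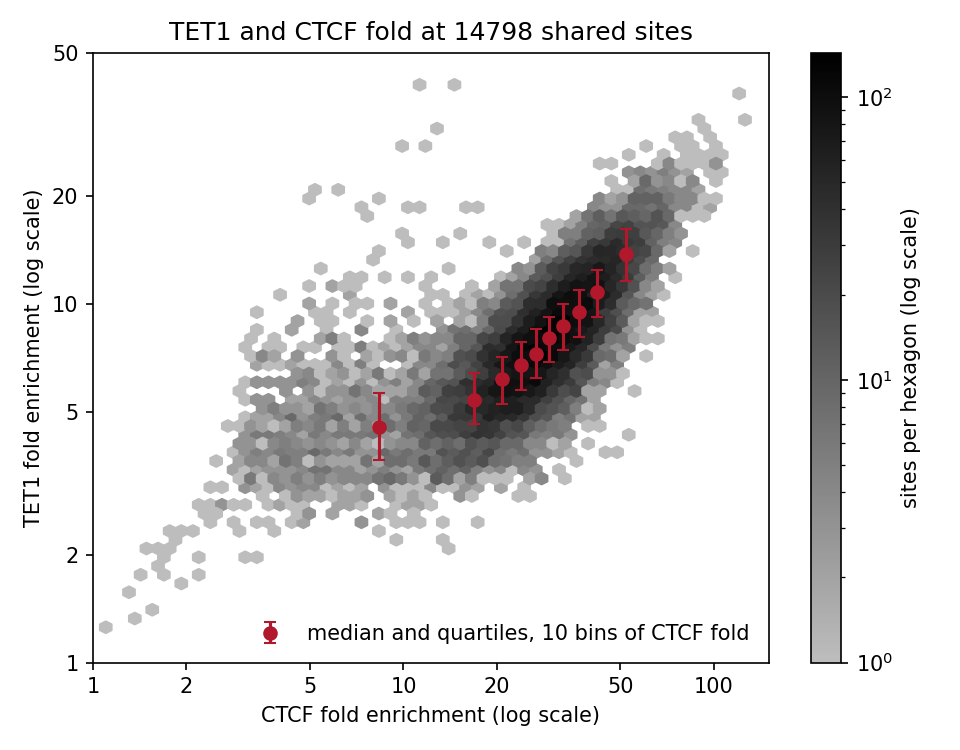
TET1 fold enrichment against CTCF fold enrichment at the 14798 shared sites, both on log axes; grey hexagons count sites, and red points give the median and quartiles of TET1 fold in 10 equal bins of CTCF fold. The median TET1 fold is 4.55 in the lowest bin and 13.7 in the highest, and a few sites with a TET1 fold above 20 stand over CTCF folds below 15.

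The TET1 regions of highest fold did not all sit on strong CTCF. The 2 highest, at chr17:17875591-17876396 and chr17:45973080-45973665, had TET1 folds of 40.8 and 40.3. Their CTCF regions had folds of 11.1 and 14.5 and ranked 24812 and 20341 in the CTCF list. Neither carried MBD3 or TET2. The next 3 lay on CTCF regions near the top of that list. They were chr1:147553515-147553862, chr12:58299127-58299450 and chrX:10087496-10087884, with TET1 folds of 38.1, 32.9 and 31.9. Their CTCF folds were 120.8, 125.9 and 89.2, at ranks 2, 1 and 21, and each carried MBD3. Among the 1625 TET1 regions in the strongest of 10 bins, the lowest CTCF fold was 4.92, at chr14:23790357-23790693, where TET1 stood at 19.4-fold. It was followed by chr22:35695903-35696344, with a CTCF fold of 5.29 and a TET1 fold of 20.7, and by chr19:14117091-14117519, with a CTCF fold of 5.33 and a TET1 fold of 12.9. The first and the last of these carried neither MBD3 nor TET2, and the one on chromosome 22 carried TET2.

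TET1 regions were narrower than the CTCF regions they lay on. The median ratio of TET1 to CTCF width at shared sites was 58.2% (quartiles 49.7% and 67.8%). TET1 was the narrower in 14402 of 14798 pairs, and 13521 TET1 regions, or 91.4% (90.9% to 91.8%), lay wholly inside the CTCF region. At the weakest of 10 bins of CTCF fold, 57.7% lay wholly inside, and in bins 2 to 10 at least 90.9% did. Width of a called region depends on signal and depth in its own list, so a narrower region does not by itself place a protein on less DNA. Spearman's rho between TET1 and CTCF width was 0.406 over the pairs, and between 0.266 and 0.397 within the 10 bins of CTCF fold. It was 0.678 when both regions had to overlap by 50% of their length, a rule that itself removes pairs of unequal width. Median TET1 width was 199 bp at CTCF (198 to 200) and 184.5 bp (180 to 187) away from CTCF. The 5 bins of TET1 fold at CTCF had median TET1 widths of 176, 182, 193, 205 and 233 bp, from the weakest to the strongest.

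TET1 summits coincided with CTCF summits, and more tightly the stronger the TET1 region. The median absolute offset was 7 bp. Of the 14798 pairs, 65.7% lay within 10 bp, 91.2% within 25 bp and 99.0% within 200 bp, and 627 had their summits on the same base. The TET1 summit lay at the higher genome coordinate in 48.7% (47.9% to 49.5%) and at the lower in 47.1% (46.3% to 47.9%), and the median signed offset was 0 bp. The orientation of the CTCF motif was not analysed here, so the sign refers to the genome strand alone. Over 5 equal bins of TET1 fold, from weakest to strongest, the median absolute offset was 12, 8, 7, 6 and 5 bp. The share within 50 bp was 85.1% (83.8% to 86.4%) in the weakest bin and 99.5% (99.2% to 99.7%) in the strongest. By CTCF fold it was 73.2% (70.9% to 75.4%) in the weakest of 10 bins and 95.6% or more in the other 9.

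**Figure D4:**
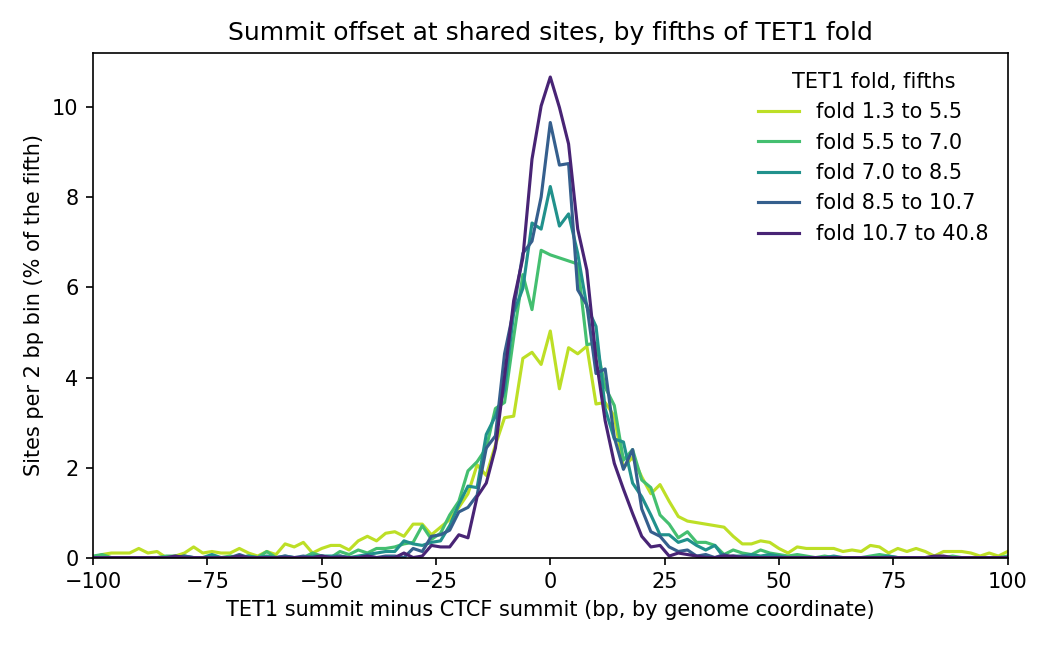
Position of the TET1 summit relative to the CTCF summit in bp, as the percentage of sites per 2 bp bin, for 5 equal bins of TET1 fold. All 5 curves centre on 0, and the spread narrows with TET1 fold, from a median absolute offset of 12 bp in the weakest bin to 5 bp in the strongest.

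Large offsets were found mostly at weak TET1 regions, and more often than small ones at CTCF regions with several summits. The TET1 summit lay more than 100 bp from the CTCF summit in 319 pairs, or 2.16%. In 234 of these TET1 belonged to the weakest of the 5 bins. Median TET1 fold was 4.27 in these pairs and 7.68 in the pairs up to 100 bp apart, and median CTCF fold was 8.54 and 28.2 in the same order. The CTCF region had several summits in 130 of the 319, or 40.8% (35.5% to 46.2%), and in 3.05% (2.78% to 3.34%) of the closer pairs. TET2 was called at 12.9% (9.62% to 17.0%) of the TET1 regions with large offsets and at 1.50% (1.31% to 1.71%) of the closer ones, against 2.78% of all TET1 regions. For MBD3 the shares were 16.6% (12.9% to 21.1%) and 22.9% (22.2% to 23.6%). TET1 regions with a fold under 3 made up 8.46% (5.88% to 12.0%) of those with large offsets and 0.553% of the closer ones. The shares with TET2 and MBD3 were not computed without them. In the strongest of the 5 bins of TET1 fold, the largest offsets were 702 bp at chr11:64217020-64217275, 485 bp at chr19:45989092-45989285 and 382 bp at chr19:10828072-10828755. The CTCF region had 2 summits at each of these, and the offset was taken to the one of higher −log10 q. Measured to the nearer CTCF summit, the 3 TET1 summits lay 15, 12 and 25 bp away, in the same order.

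At CTCF regions with several summits, TET1 usually stood on the strongest one, and where TET1 had 2 regions they stood on different summits. There were 571 TET1 regions at such sites, and 533 of them at CTCF regions with exactly 2 summits, whose median spacing was 327 bp. The TET1 summit was nearest to the CTCF summit of higher −log10 q in 428 of the 533, or 80.3% (76.7% to 83.5%). That share was 60.9% (51.6% to 69.5%, n = 110) where the higher −log10 q was up to 1.5 times the lower, and 91.6% (87.9% to 94.2%, n = 297) where it was over 3 times the lower. A CTCF region touched by 2 TET1 regions enters these counts 2 times. With its TET1 summits on different CTCF summits, 1 of the 2 was always nearest to the weaker one. The intervals treat both as independent. Measured to the nearest summit of the region, 89.0% of the 571 lay within 50 bp, against 73.7% measured to the strongest summit. TET1 itself had several summits in 100 of these 571 regions, or 17.5% (14.6% to 20.8%), and in 0.436% of the 14227 TET1 regions at CTCF regions with 1 summit. Of the 52 CTCF regions touched by 2 TET1 regions, 49 had several CTCF summits. In all 49 the 2 TET1 summits were nearest to different CTCF summits, and in 39 of the 52 both lay within 50 bp of a CTCF summit. The median distance between the paired TET1 summits was 478 bp. Highest in CTCF fold among the 52 were chr15:81558189-81559128, chr8:135917763-135918746 and chr5:118747451-118748123, at 65.5-, 59.5- and 53.5-fold, and each had 2 CTCF summits and carried MBD3.

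The 1448 TET1 regions away from CTCF lay at a wide range of distances from CTCF. No CTCF region was called on the mitochondrial genome, where 14 of them lay. The other 1434 had their nearest CTCF summit at a median of 15457 bp (quartiles 4426 and 37186). Of these, 5 lay within 250 bp, a distance that regions of these widths can hardly have without overlapping. There were 143 between 250 bp and 1 kb, 429 between 1 and 10 kb, 766 between 10 and 100 kb and 91 farther. Within 10 kb this came to 40.2% (37.7% to 42.8%), which was 83.9% under the rule of 50% overlap, since that rule counts regions that touch CTCF as away. CTCF regions had their nearest CTCF neighbour at a median of 15142 bp, with 39.0% within 10 kb. The median was 20857 bp for MBD3 regions away from CTCF, with 30.6% (28.9% to 32.3%) within 10 kb, and 15283 bp for TET2 regions, with 40.7% (37.4% to 44.1%). At short range the lists differed: 10.3% of TET1 regions away from CTCF had a CTCF summit within 1 kb, against 4.39% for MBD3, 10.8% for TET2 and 4.47% for CTCF and its own neighbours. Several CTCF summits within 1 joined region did not count as neighbours, which leaves close pairs out of that last share.

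**Figure D5:**
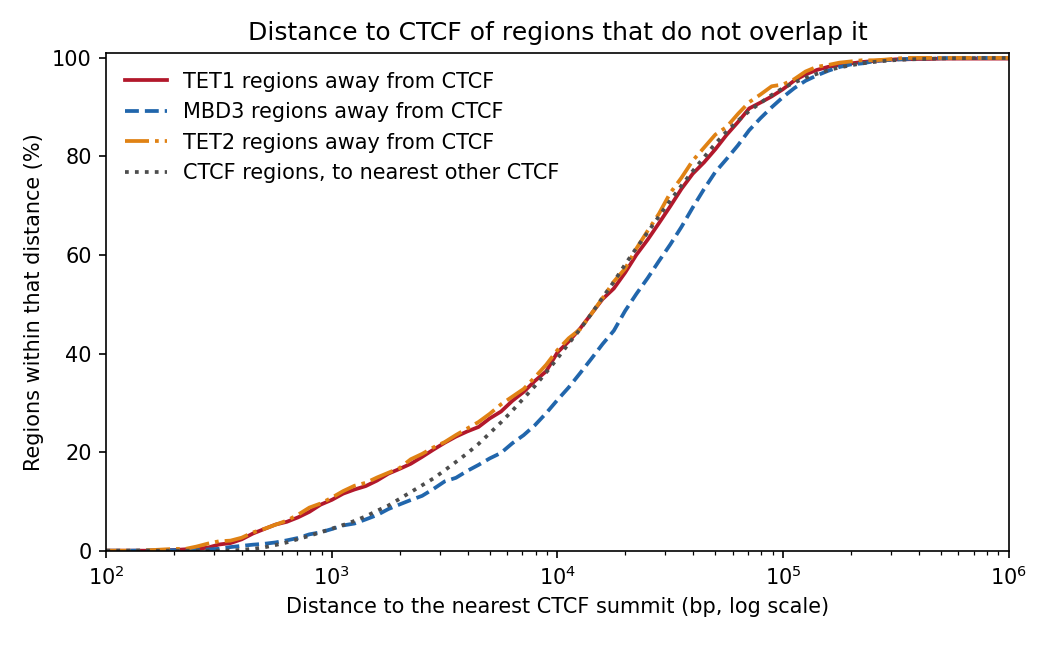
Cumulative percentage of TET1, MBD3 and TET2 regions that do not overlap CTCF, by distance of their summit to the nearest CTCF summit in bp on a log axis; the dotted line gives the distance of each CTCF region to the nearest other one. The TET1 curve passes 40.2% at 10 kb and lies close to the TET2 curve, while MBD3 stands at 30.6% there.

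Median fold and width of these regions differed little between the distance classes. The median TET1 fold was 3.92 within 250 bp, 4.16 up to 1 kb, 4.18 up to 10 kb, 4.27 up to 100 kb and 4.25 beyond, and the median width was 158, 180, 184, 183 and 185 bp in the same order. The nearest CTCF region carried TET1 in 0 of the 5 cases within 250 bp and in 35.7% up to 1 kb. The share was 39.6% up to 10 kb, 35.1% up to 100 kb and 30.8% beyond, against 34.4% of all CTCF regions. The median CTCF fold of the nearest region was 4.44, 5.78, 9.16, 11.3 and 8.57 in the same order, against 13.6 in the whole CTCF list. Of all CTCF regions, 4.74% carried TET1 at folds from 5 to 10 and 10.9% at folds from 10 to 15. The shares were not compared at like fold. The strongest region away from CTCF lay at chrX:70288293-70288609, with a TET1 fold of 11.97, rank 1912 in the list, and a CTCF summit 27255 bp away. Next came chr18:29238867-29239119 at 11.7-fold, 672 bp from a CTCF summit of 3.19-fold, and chrX:18693005-18693212 at 11.4-fold, 1669 bp from a CTCF summit. After these came chr1:161397821-161398072 (9.12-fold) and chr21:37470171-37470386 (8.97-fold). MBD3 was called at those on chromosomes 18 and 21. Within 250 bp of a CTCF summit, the highest were chr13:79618615-79618772 with a TET1 fold of 5.21 and chr8:42698220-42698375 with 4.17. Between 250 bp and 1 kb, the one after the region on chromosome 18 was chr19:49652995-49653319, with a TET1 fold of 8.25 at 467 bp. Beyond 100 kb, the highest were chr12:101603884-101604084 with a TET1 fold of 7.58 and chr1:84713229-84713474 with 6.38.

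TET1 regions away from CTCF carried TET2 and MBD3 more often than those at CTCF. TET2 was called at 194 of the 1448, or 13.4% (11.7% to 15.2%), against 258 of the 14798 at CTCF, or 1.74% (1.54% to 1.97%). MBD3 was called at 405 of the regions away from CTCF, or 28.0% (25.7% to 30.3%), against 22.8% (22.1% to 23.4%) at CTCF. Over all TET1 regions the shares were 2.78% for TET2 and 23.2% for MBD3. TET2 and MBD3 were called together at 116 of the 1448 regions away and at 133 of the 14798 at CTCF. The 14 regions on the mitochondrial genome are among the 1448, and the 13.4% and 28.0% were not recomputed without them. Regions with a fold under 3 made up 6.28% of the TET1 regions away and 0.723% of those at CTCF. Without them TET2 was called at 11.3% and MBD3 at 26.8% of those away, and the filter was not applied to those at CTCF. At CTCF the share with MBD3 went with TET1 fold, from 9.29% (8.30% to 10.4%) in the weakest of 5 bins to 51.2% (49.4% to 53.0%) in the strongest. That weakest bin had TET1 folds up to 5.53 and a median of 4.65. Regions away from CTCF had a median TET1 fold of 4.22, so the 22.8% at CTCF includes many regions of higher fold. TET1 fold at CTCF was 10.1 at the median with MBD3 and 7.13 without MBD3, and away from CTCF it was 4.33 with MBD3 and 4.16 without. By distance class, MBD3 was called at 19.6% (13.9% to 26.8%) of the regions between 250 bp and 1 kb from CTCF and at 34.1% (25.2% to 44.3%) of those beyond 100 kb.

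The share of TET1 regions at CTCF differed between chromosomes. Over chromosomes 1 to 22 and X, it was 71.0% (66.7% to 74.9%) on chromosome 13, where 135 of 465 TET1 regions were away from CTCF, and 98.2% (96.0% to 99.2%) on chromosome 22. The median over the 23 chromosomes was 93.0%. The 135 on chromosome 13 were unevenly placed, with 29 of them between 67 and 68 Mb. Another 10 lay between 62 and 63 Mb and 9 between 66 and 67 Mb. The share of CTCF regions with TET1 was lowest on chromosome 18, at 26.7% (23.8% to 29.8%), and highest on chromosome 17, at 43.1% (41.0% to 45.3%). At shared sites, median TET1 fold lay between 7.17 and 7.99 and the median absolute offset between 6 and 8 bp.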

How the data were processed

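Chromatin immunoprecipitation with sequencing gave 1 pooled peak list per antibody and condition, from 3 samples each, per the labels. Build hg19 and MACS2 2.1.2 are named in the submitters' processing notes, as are bedtools 2.25.0, SAMtools 1.9, Bowtie2 2.3.4 and FastQC 0.11.7, without the role of each. For the control behind the peak calls, the answer is not given in the sources used. The deposited lists hold, per the narrowPeak format, the fold enrichment of each peak, −log10 of its q-value and its summit offset, all computed by the authors. Lists of cells with IAA were not used here.

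From these, regions, overlaps, summit distances, shares, medians and Spearman's rho were computed with Python 3.11.15, pandas 2.3.3, numpy 2.4.6 and SciPy 1.17.1, and plotted with matplotlib 3.10.9. A joined region kept its highest fold and its highest −log10 q, with the summit that belonged to that −log10 q. Coordinates are hg19, counted from 1. The code was tested on simulated lists. No significance test was made, because the lists hold no value per sample.

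Comparisons, bins, lists of other antibodies and the rule for named regions were chosen with earlier results of these data known. The rule took the regions of highest fold at CTCF, away from CTCF and per distance class, the CTCF regions of highest fold without TET1, and those with the largest offset, the lowest paired CTCF fold or the most overlapping regions. Analyses of spacing between CTCF regions, of regions with several summits and of fold under 3 were added after the data were seen. Alternatives were other overlap rules, thresholds on −log10 q and fold, single rows, other pairings and summits, and subsets of chromosomes or regions.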

Additional observations from a re-analysis of the deposited data

How the results depend on the processing

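Of 95 values recomputed under other settings for the 10 main results, 56 stayed within the 95% interval of the reported value and 39 moved outside it. No rank correlation changed sign. With 50% overlap of both regions, 67.2% of TET1 regions were at CTCF and 25.4% of CTCF regions carried TET1, rho was 0.801 for fold and 0.678 for width, 83.9% of the regions away had a CTCF summit within 10 kb, median TET1 fold was 8.06 at CTCF and 5.87 away, median TET1 width 210 bp and median CTCF fold with TET1 28.8. With summits within 200 bp, 90.2% of TET1 regions were at CTCF and 45.5% of the others were within 10 kb. At −log10 q of at least 5 the shares were 96.7% and 33.7%, rho 0.749 for fold and 0.423 for width, and the medians of TET1 fold 8.03 at CTCF and 5.51 away and of CTCF fold 29.3. At −log10 q of at least 10 the shares were 98.5%, 30.2% and, within 10 kb, 35.9%, rho for fold 0.735, the offset 6 bp, TET1 fold 8.93 and 5.72, TET1 width 208 bp and CTCF fold 31.7. At a fold of at least 5 the shares were 97.0%, 32.7% and 32.7%, rho 0.720 and 0.442, TET1 fold 8.20 and 5.69, TET1 width 201 bp and CTCF fold 30.1, in the same order. Single rows gave 34.9% of CTCF rows with TET1 and a CTCF fold of 27.5, and −log10 q as strength gave rho of 0.786. Thresholds on fold or −log10 q remove weak regions and so raise medians of fold by construction, and the 50% rule moves unequal pairs to the regions away; the cause of the other moves was not tested. Chromosomes 1 to 22 and X alone and lists without regions called with all 4 antibodies moved none of the 10 results outside the intervals, and pairs that overlap no other region moved neither rho nor the offset. Pairing by the highest CTCF fold could change no value, since no TET1 region touched more than 1 CTCF region, and the choice of summit could change the offset alone, so these say nothing about stability although they are among the 56. Of the settings chosen after seeing the data, the filter on fold under 3 was run for both shares of overlap, rho of fold and the share within 10 kb, and the nearest CTCF summit of any row for the offset, and these values stayed within the intervals. Medians of fold have no counterpart in −log10 q, which is another unit, so that setting was not run for them. No paired analysis was possible because the lists pool the replicates, and no replicate could be left out for the same reason. The unknown depth limits which weak TET1 regions could be called, so a CTCF region without TET1 is one where TET1 was not detectable at this depth.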

Other observations

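A small set of TET1 regions stood apart in the plot of TET1 against CTCF fold, and it was chosen after those values were seen. Of the 1625 TET1 regions in the strongest of 10 bins, with a TET1 fold of 12.4 or more, 19 lay on CTCF regions with a CTCF fold under 15. Both of the strongest TET1 regions in the list were among them. Their median TET1 fold was 18.7 (95% interval 14.7 to 26.7), against 14.5 (14.3 to 14.6) for the other 1606. MBD3 was called at 0 of the 19, which allows a share of up to 15.8%, and at 979 of the other 1606, or 61.0% (58.5% to 63.3%). CTCF fold, by which the 19 were chosen, went with MBD3. Among all 1480 shared sites in the weakest of 10 bins of CTCF fold, 12.4% (10.8% to 14.2%) carried MBD3. That share lies under the limit, so 0 of 19 cannot be told apart from it. The 1480 sites had a median TET1 fold of only 4.55, however, and MBD3 also went with TET1 fold. No comparison at like TET1 and CTCF fold was made. The TET1 regions of the set were wide, with a median of 442 bp (337 to 557) against 243 bp (240 to 246) for the others, and 10 of the 19 were wider than their CTCF region, against 24 of the 1606. Their summits still lay at a median of 13 bp from the CTCF summit, against 5 bp for the others.

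TET1 regions away from CTCF were uneven along the genome. In windows of 1 Mb on chromosomes 1 to 22 and X, 849 windows held at least 1 of them, and 561 of these held exactly 1. The fullest window, from 67 to 68 Mb on chromosome 13, held 29, beside 7 TET1 regions at CTCF and 27 CTCF regions. The next were 27 to 28 Mb and 26 to 27 Mb on chromosome 6, with 15 and 13, where 19 TET1 regions lay at CTCF in each. The 23 windows with 5 or more held 191 of the regions. Another region of the same class lay within 100 kb for 33.4% of those away and for 77.8% of the more numerous ones at CTCF. Windows were not summarised for the TET1 regions at CTCF, so unevenness is not shown to be particular to those away.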
